A study of Mus musculus with 3 samples.

Results

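Irf8-high monocyte and dendritic progenitors of the newborn mouse liver were picked out by their RNA among blood progenitors. A cell was included when it had at least 3 UMIs (unique molecular identifiers, each standing for 1 captured RNA molecule) of Irf8. It also needed 2 or more UMIs of at least 2 of 7 further genes, namely Csf1r, Cd74, Ly86, Ctss, Ccr2, H2-Aa and F13a1. Of 26887 cells that passed the quality filters, 280 met this rule. They were 214 cells of the Control library, 44 of the MLL-ENL library and 22 of the MLL-ENL Skida1-deleted library. These 280 cells are called members below, and since measured counts chose them, their Irf8 and marker levels are descriptions and not findings.

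The study used CITE-seq, which counts the RNA of a cell together with antibody tags bound to its surface. Cells negative for lineage markers and positive for the receptor KIT were sorted from livers of mice at postnatal day 0, the same gate and age in all 3 groups. The groups were Control, mice with MLL::ENL, and mice with MLL::ENL in which Skida1 was deleted, with 1 library for each. MLL::ENL is a leukemia fusion of MLL (Kmt2a), a histone methyltransferase, with ENL (Mllt1), a chromatin reader of the transcription elongation machinery. What drives the fusion or the deletion, which alleles the Control mice carried and how many animals made up a library is information not given in the sources used here. With 1 library per group no test between groups was possible. Brackets therefore give 95% intervals that cover counting error only, and differences between animals, preparations or sorts cannot be told apart from genotype.

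IRF8 is a transcription factor that pairs with partners such as PU.1 (gene Spi1) on DNA. In bone marrow and fetal liver it is known for directing myeloid progenitors toward monocytes and toward the conventional dendritic cell type 1 (cDC1), and away from neutrophils. Monocytes and dendritic cells grow in response to CSF1 and FLT3 ligand, whose receptors are encoded by Csf1r and Flt3. Dendritic cells also load peptides on MHC class II molecules, built from H2-Aa, H2-Ab1 and H2-Eb1 with the invariant chain Cd74.

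Of the kept cells, members were 3.7% in Control [3.23–4.22]. The share was 0.395% for MLL-ENL [0.287–0.529] and 0.221% for the library with Skida1 deleted [0.138–0.334]. Both fusion libraries were thus below Control, by 9.39-fold in MLL-ENL [6.76–13.3] and by 16.8-fold in the Skida1-deleted library [10.8–27.3]. The ratio of the Skida1-deleted to the MLL-ENL share was 0.56 [0.319–0.954]. Kept cells were deeper in Control, with medians of 29317, 14139 and 18438 UMIs in the 3 libraries in the order above, so the shares were also taken after drawing 10000 UMIs from every cell that had them. This left out 416, 4472 and 2483 shallower cells. On that footing 94, 16 and 8 cells met the rule, or 1.75%, 0.24% and 0.107%, and the share was 7.32-fold lower in MLL-ENL [4.28–13.3] and 16.4-fold lower in the Skida1-deleted library [7.99–39.1]. The ratio between the fusion libraries became 0.446, with an interval from 0.165 to 1.11 that includes equal shares.

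**Figure D1:**
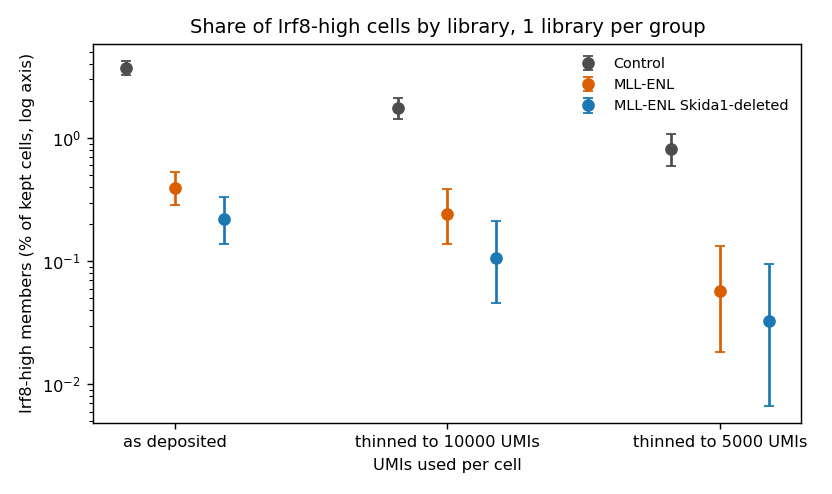
Members as a percentage of kept cells in each library, with 95% exact binomial intervals, for the counts as deposited and after thinning each cell to a fixed number of UMIs. Control lies above both fusion libraries at every depth (3.7%, 1.75% and 0.814%, against at most 0.395%).

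Median depths of members were 29242, 20334 and 18160 UMIs, in the same order, and ranged from 3472 to 140452, from 8917 to 51401 and from 6703 to 86269. Their summed depths were 6947296, 972478 and 494003 UMIs, so that 1 UMI is worth 0.144, 1.03 and 2.02 CPM (UMIs per 1000000 gene UMIs of the summed cells). Low genes are therefore resolved least well in the Skida1-deleted library. Of the members, 20, 2 and 2 were among the cells with the highest doublet scores of their library, and without such cells the shares stood at 0.117 and 0.062 of Control. Erythroid, megakaryocyte or mast cell UMIs at the fixed level were found in 35, 3 and 2 members, and without them the ratios were 0.119 and 0.0648. Between 17 and 33 cell barcodes were shared by pairs of libraries, and 0 of these were members. Xist was at 600 and 1097 CPM in members of Control and MLL-ENL and at 0 UMIs in the Skida1-deleted library, which alone had Ddx3y (76.9 CPM). The deletion therefore cannot be told apart from sex in comparisons with that library.

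The rule's thresholds fell differently in the 3 libraries. Irf8 reached 3 UMIs in 429, 78 and 55 cells, of which 86, 22 and 18 had 1 of the 7 markers and 129, 12 and 15 had none. Just outside the rule, 8, 11 and 7 cells had exactly 2 Irf8 UMIs with 2 or more markers, and just inside it 5, 12 and 6 members had exactly 3. The fusion members thus sat close to the threshold more often, with a median of 5 Irf8 UMIs in each fusion library against 14 in Control. In Control 90 of 214 members carried 4 or more markers, compared with 7 of 44 and 4 of 22. As a measure of free RNA, Irf8 UMIs were counted in erythroid cells (5 or more UMIs of both Klf1 and Car1, a class set after the data were seen). At least 1 Irf8 UMI was found in 5.06%, 0.883% and 3.5% of them, at median depths of 41801, 38190 and 39788 UMIs, and 3 or more in 22 of 1759, 1 of 453 and 3 of 429.

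Irf8 (ENSMUSG00000041515, chromosome 8 from 120736358 to 120756694 in GRCm38.p6) was at 531 CPM [514–548] in Control members, against 310 CPM [276–347] for MLL-ENL and 263 CPM [220–312] for the library with the deletion. All other kept cells had 10.9, 3.6 and 3.3 CPM. Members held 66.2% of all Irf8 UMIs in Control, but 29.9% and 16.1% in the fusion libraries, so there the larger part of Irf8 RNA lay in cells that did not meet the rule.

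The 7 markers were used unevenly. Ly86, which encodes the co-receptor MD-1 of an innate immune receptor, had 2 or more UMIs in 85%, 95.5% and 86.4% of members of the 3 libraries. F13a1, the catalytic subunit of a clotting transglutaminase that monocytes make, was counted in 55.6%, 79.5% and 81.8%. Ccr2, the receptor that draws monocytes to CCL2, was counted in 49.1%, 9.09% and 4.55%, and Ctss, a cathepsin of antigen processing, in 60.3%, 31.8% and 31.8%. Members of the fusion libraries thus qualified mostly through Ly86 and F13a1. Csf1r was counted in 43.9%, 25% and 40.9%, Cd74 in 18.7%, 6.82% and 4.55% and H2-Aa in 16.8%, 4.55% and 4.55%.

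The cell type named in the label was checked against marker lists from which the rule's genes had been left out. A cell counted as carrying a list when at least 2 of its genes had 2 or more UMIs. Monocyte genes were carried by 89.7%, 81.8% and 59.1% of members, against 12.2%, 3.44% and 3.52% of other kept cells. Non-members rich in granule gene UMIs, the nearest cells described further on, carried the same list in 58.7%, 33.7% and 25.7%. The cDC1 list was carried by 40 of 214, 5 of 44 and 1 of 22 members (18.7%, 11.4% and 4.55%), and by at most 0.144% of other cells in any library. Genes of the conventional dendritic cell type 2 (cDC2) were carried by 11 of 214 (5.14%), 0 of 44 and 0 of 22 members. Of other kept cells 0.575%, 0.135% and 0.131% carried them. Monocyte genes were thus carried by most members, though not by them alone, and cDC1 genes by a minority. The list of common dendritic progenitor genes was carried by 99.5%, 95.5% and 95.5% of members but also by 82.2%, 51.7% and 61% of other cells, and the plasmacytoid list by 80.4%, 95.5% and 72.7% against 84.1%, 57.6% and 66.4%. By the share of cells carrying them, these 2 lists separate members poorly. By summed level, the common dendritic progenitor genes were at 2817, 1687 and 1287 CPM in members against 431, 398 and 383 CPM in other cells. The plasmacytoid genes were closer, at 699, 652 and 587 CPM against 474, 488 and 451 CPM. Siglech, a defining gene of plasmacytoid cells, had UMIs in 17, 5 and 1 members.

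Genes of other cell types were found to different extents. Azurophil granule genes, of early granulocyte and monocyte progenitors, were carried by 94.9%, 97.7% and 100% of members and by 96.4%, 83.7% and 89.7% of other kept cells. Their summed level was higher in members, at 7610, 7726 and 5676 CPM against 2292, 1825 and 1899 CPM in other kept cells. Macrophage genes were carried by 1 of 214 Control members and by 0 of 44 and 0 of 22 in the fusion libraries, against 1.19%, 0.18% and 0.151% of other kept cells. Vsig4 and Folr2 had 0 UMIs in Control members, and C1qa, C1qb, C1qc, Cd5l, Timd4 and Mrc1 were among 13 of 16 genes of the list with 0 UMIs in both fusion libraries. Summed depth was lower there, and a count of 0 allows up to 3.79 CPM in MLL-ENL and 7.47 CPM in the Skida1-deleted library. B-lineage genes were carried by 10 of 214 (4.67%), 0 and 0 members, against 1.92%, 1.27% and 1.31% of other kept cells. Cd79b, the only gene of that list with enough counts in Control, was 1.60 log2 units higher in members than in other cells. Cd79a and Pax5 had 0 UMIs in members of all 3 libraries. The 14 erythroid genes together came to 1017, 340 and 846 CPM in members, below 4021, 2889 and 2506 CPM in other cells. The 20 monocyte genes of the list came to 940, 711 and 482 CPM in members, below the erythroid genes in Control and in the deletion library.

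Control members fell into 2 sets by H2-Aa. The gene (ENSMUSG00000036594, chromosome 17 from 34282744 to 34287823) was counted with 2 or more UMIs in 36 of the 214, where it reached a median of 57 and a maximum of 174 UMIs. Another member had 1 UMI, and 177 had 0 although their median depth was higher, at 31220 against 13900 UMIs. The 36 cells supplied 10.9% of member UMIs but 99.5% of Cd74, 99.7% of H2-Eb1 and 61.3% of Cst3. F13a1 went the other way: 1 of the 36 had 2 or more UMIs of it, against 117 of the 177. H2-Aa, Cd74 and F13a1 are all among the 7 markers of the rule, of which a member needed 2. This opposition therefore depends in part on which cells qualified and is a description only. In MLL-ENL only 2 of 44 members had 2 or more H2-Aa UMIs (26 and 85) and another had 1 UMI. In the Skida1-deleted library 1 of 22 had H2-Aa (37 UMIs).

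**Figure D2:**
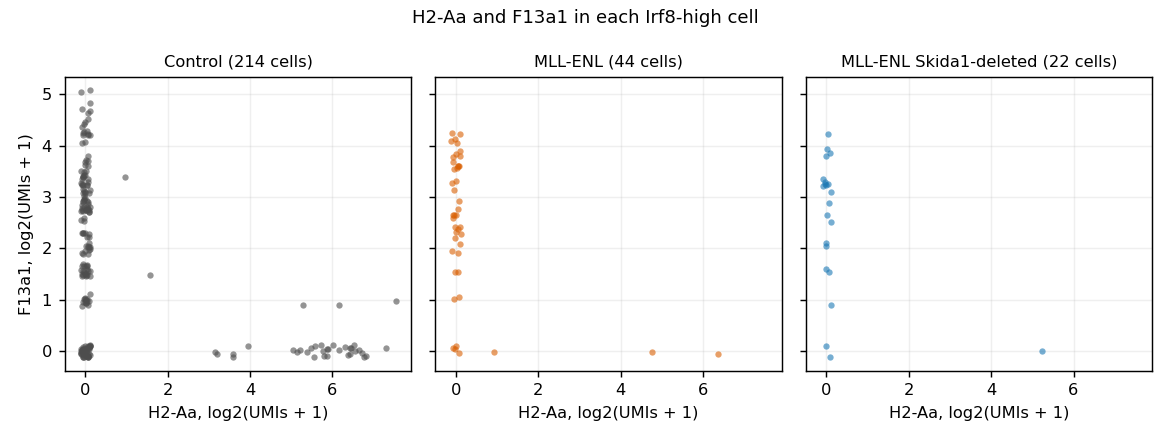
Each point is 1 member, with UMIs of H2-Aa on the horizontal and UMIs of F13a1 on the vertical axis, by library. Control members fall along both axes with few between them, while all but 3 members of the fusion libraries have at most 1 H2-Aa UMI. Both genes are markers of the rule, so their positions depend in part on which cells qualified.

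Among 3514 genes with enough counts to compare, 229 (6.52%) were 2-fold or more higher in the 36 H2-Aa cells than in the 177 without H2-Aa, and 77 (2.19%) were lower. H2-Aa and the genes tied to it were used to split the cells, so these are descriptions, and the genes were listed by size after the split was seen. The cDC1 and MHC class II genes are given by their levels, since genes near 0 in the 177 cells had enough counts only through the H2-Aa cells. The median over all genes was -0.10 on the log2 scale. Batf3, a factor required for cDC1 development, was at 129 CPM in the H2-Aa cells and 3.09 CPM in the rest, a 41.9-fold difference [25.4–72.5]. Clec9a, the receptor by which cDC1 sense dead cells, had 49 UMIs against 2. Id2, an inhibitor of E proteins, was 23.4-fold higher [20.7–26.6], at 1282 against 54.8 CPM. Cst3, the protease inhibitor cystatin C abundant in dendritic cells, was at 10601 against 817 CPM. Irf8 itself was 2.83-fold higher [2.63–3.05], at 1256 against 443 CPM.

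The H2-Aa cells also had more of the interferon-inducible genes Ifi205 (512 against 6.82 CPM) and Irf7 (204 against 45.7 CPM). Of 9 measured MHC class I genes 6 were higher, and of 6 immediate early genes 5 (Junb, Jund, Klf2, Klf6 and Btg2). Flt3 was nearly the same, at 96.3 and 99 CPM, and so was Kit, at 115 and 115 CPM. Genes of the primary (azurophil) granules were lower, 8 of 10, with Prtn3, the gene for proteinase 3, at 456 against 2930 CPM and Mpo, for myeloperoxidase, at 439 against 2089 CPM. Monocyte genes were split: Ly6c2, for a monocyte surface protein, was lower at 21.1 against 98.3 CPM and Ms4a6c at 136 against 395 CPM, while Tgfbi, Ifi204 and Pld4 were higher. The cDC1 list was carried by 35 of the 36 cells and by 5 of the 177 (2.82%).

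Set against all other kept cells of Control, 219 of 3386 genes (6.47%) were 2-fold or more higher in members and 104 (3.07%) were lower. The same cells were chosen by RNA, so these counts have no test. Genes of 50 CPM in either set were compared, so a gene near 0 in other cells was measured only where members were high. Of 20 monocyte genes 4 had enough counts and all 4 were higher (Ly6c2, Ms4a6c, Ms4a6b and Lyz2), as were the 8 measured of 14 NADPH oxidase and phagocytosis genes. The median over all genes was 0.00 on the log2 scale. Ncf1, an oxidase subunit, was at 76.3, 77.1 and 93.1 CPM in members in the order Control, MLL-ENL and Skida1-deleted, against 7.46, 6.46 and 8.97 CPM in other cells. Of 13 lysosome and cathepsin genes 7 were higher, of 10 interferon response genes 7, and of 7 cytokine receptors 5 (Csf2rb, Flt3, Ifngr2, Ifnar2 and Il6ra). Spi1, which encodes PU.1, was at 300, 220 and 168 CPM in the members of the 3 libraries and 2.08 log2 units above other cells in Control. Erythroid genes were the main group below, 11 of 12. The S phase and G2M lists had 0 of 23 and 0 of 24 genes past 2-fold in either direction.

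The nearest cells were those with 5 or more UMIs of at least 3 of the granule genes Elane, Prtn3, Ctsg and Mpo. This comparator held 671, 721 and 901 non-members. Members carried the same genes at that level in 134 of 214 cells (62.6%), 29 of 44 (65.9%) and 14 of 22 (63.6%), so both sets are granule-expressing progenitors in large part. Against them 55 of 3285 genes (1.67%) were higher in Control members and 37 (1.13%) lower. Mpeg1, the pore-forming perforin-2 of phagocytes, was at 74.4, 73 and 58.7 CPM in members of the 3 libraries and 19-fold above the granule-high cells in Control [15–24.4]. Ms4a6c was at 369, 282 and 209 CPM, 4.43-fold above them [4.17–4.72]. Cst3 was at 1887, 1005 and 737 CPM and 4.98-fold above, and Id2 at 189, 114 and 42.5 CPM and 37.3-fold above [30.5–46.1]. Both were higher in the H2-Aa cells than in the other Control members, as given above.

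Among other genes above the granule-high cells, Unc93b1, which carries nucleic acid-sensing Toll-like receptors to the endosome, was at 133, 117 and 117 CPM in members, compared with 35.1, 38 and 32.8 CPM. Il6ra, the interleukin 6 receptor, was at 58.4, 54.5 and 46.6 CPM compared with 22.5, 23.7 and 19.7. Of 11 interferon response genes 3 were 2-fold higher in Control (Ifi27l2a, Ifitm3 and Mndal). Lyz2, the lysozyme of monocytes and neutrophils, was 2.12-fold higher in Control [1.98–2.27] with 15.1% of its member UMIs in 1 cell, but lower than in the granule-high cells of the fusion libraries, with log2 ratios of -0.30 for MLL-ENL and -0.81 with Skida1 deleted. H2-Ab1, H2-Eb1, H2-DMa and H2-DMb1 of the MHC class II list were higher too. The 36 H2-Aa cells hold 98.2% of the H2-Ab1 and 99.7% of the H2-Eb1 UMIs of Control members.

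Genes below the granule-high cells included those of neutrophils, basophils and mast cells. Many of them had enough counts only through the granule-high cells, and Elane, Prtn3, Ctsg and Mpo chose those cells, so the levels are given as a description. S100a8, a calprotectin subunit, had 0.864, 0 and 0 CPM in members and 104, 118 and 420 CPM in granule-high cells, a 120-fold difference in Control [55.2–328]. Against 3 UMIs as the floor it was at least 38.2-fold lower in MLL-ENL and at least 69.1-fold lower in the Skida1-deleted library. Cebpe, the factor of late granulocyte maturation, was at 9.5, 0 and 2.02 CPM compared with 78.1, 31.6 and 46.5. Elane, for neutrophil elastase, was at 221, 356 and 115 CPM compared with 816, 644 and 799, whereas Mpo, at 1919, 2323 and 1984 CPM, stayed within 2-fold of 2411, 2715 and 2702. Of the 14 measured myeloid transcription factors, Id2, which was higher in the H2-Aa cells, was the only one higher in Control and Cebpe the only one lower. Spi1 was at 300 against 243 CPM, and Zeb2, a repressor active in monocyte and dendritic differentiation, was at 261, 196 and 204 CPM in members, 0.33 above granule-high cells on the log2 scale in Control.

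The same genes were followed in the fusion libraries. Of the 48 genes outside the rule that were higher than in granule-high cells in Control, 32 had enough counts in MLL-ENL, and 21 of these (65.6%) were 2-fold higher there too, against 0.967% of all genes. In the Skida1-deleted library 19 of 26 (73.1%) were, against 1.08%. Of the 37 lower genes, 28 of 31 (90.3%) and 22 of 31 (71%) were 2-fold lower, against 1.47% and 1.3% of all genes. Because the same rule chose the cells in each library, these shares describe the classes and are not independent of the choice.

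Promoters of the 48 genes were searched for letters bound by IRF factors, because genes known to respond to interferon or IRF8 were among them. The windows were the 250 bases before each start in RefSeq's GRCm38.p6 table. GAAANNGAAA (an IRF repeat) and GGAANNGAAA (a composite of ETS and IRF letters) were searched on both strands. Of the 48 genes 36 had an entry (75%), under the 80% needed for a comparison of shares, which is therefore void. A match was found in 9 of these 36 (Mndal, Ifi211, Ifi205, Ncf1, Trim30a, Rnase6, Sp100, Ifitm6 and Slfn2). Of all 2668 measured genes with an entry 5.28% held a match, and of all 32851 windows, counted singly and not by gene, 5.09%. Of the 37 lower genes 30 had an entry and Srgn alone held a match. Of the 8 rule genes 6 had an entry and Ctss alone held a match. A match is a description of the letters, not of binding. The sequences below are shown because their genes were high in members, with the match in capitals, read from 5′ to 3′ on the gene's strand and ending at the last base before the start.
Ctss, chr3:95526666-95526785, plus strand: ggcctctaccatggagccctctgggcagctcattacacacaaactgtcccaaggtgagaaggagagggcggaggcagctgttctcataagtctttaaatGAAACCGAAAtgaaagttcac
Ifi205, chr1:174031756-174031899, minus strand: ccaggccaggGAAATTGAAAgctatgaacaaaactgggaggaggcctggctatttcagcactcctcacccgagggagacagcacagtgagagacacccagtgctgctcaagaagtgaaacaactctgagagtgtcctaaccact
Ifi211, chr1:173913047-173913166, minus strand: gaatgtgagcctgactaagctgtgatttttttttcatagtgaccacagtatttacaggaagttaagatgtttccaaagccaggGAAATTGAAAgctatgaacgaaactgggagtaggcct
Ifitm6, chr7:141016893-141017142, minus strand: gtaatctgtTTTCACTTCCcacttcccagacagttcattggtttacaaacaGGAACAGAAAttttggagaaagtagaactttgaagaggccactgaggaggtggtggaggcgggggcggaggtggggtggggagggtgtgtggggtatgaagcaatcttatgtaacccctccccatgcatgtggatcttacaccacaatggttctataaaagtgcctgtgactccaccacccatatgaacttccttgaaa
Ncf1, chr5:134229626-134229745, minus strand: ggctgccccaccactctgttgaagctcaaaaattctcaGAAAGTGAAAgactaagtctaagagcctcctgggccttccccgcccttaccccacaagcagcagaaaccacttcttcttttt
Slfn2, chr11:83064992-83065111, plus strand: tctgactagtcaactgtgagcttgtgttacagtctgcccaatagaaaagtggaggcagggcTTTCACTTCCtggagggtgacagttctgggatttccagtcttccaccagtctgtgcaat

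Of these genes, Ctss was at 82.3, 55.5 and 48.6 CPM in the members of Control, MLL-ENL and the Skida1-deleted group. Ifi205 was at 61.9, 17.5 and 2.02 CPM, Ifi211 at 80.8, 24.7 and 14.2 CPM, and Ifitm6 at 57.6, 27.8 and 10.1 CPM. Slfn2, a factor of T cell and monocyte quiescence, was at 97.2, 37 and 14.2 CPM. All 5 of these were highest in Control, whereas Ncf1 was not. The H2-Aa cells, where Ifi205 was higher as given above, held 34.8% of the Ctss UMIs and 10.9% of all UMIs of Control members. They were 36 of 214 members in Control, 2 of 44 in MLL-ENL and 1 of 22 in the Skida1-deleted library. How much of these differences follows from that mix was not tested.

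The surface tags were not used by the rule. CD34, a glycoprotein of progenitors, set the members apart most widely: their median count was 259.5, 263 and 253 in the 3 libraries, against 15, 10 and 11 in other kept cells and 104, 61 and 74 in granule-high cells. Every member had more CD34 than the median of the other cells of its library. CD135, the FLT3 protein, was at medians of 15, 16 and 15 against 6, 8 and 5, and 91.1%, 90.9% and 90.9% of members were above the other cells' median. CD16_32, the Fc receptors that rise in granulocyte-monocyte progenitors, lay between both sets, at 66, 90 and 50 in members, 29, 21 and 17 in other cells and 160, 176 and 194 in granule-high cells. CD48 was at 2452, 2092 and 2192 against 1537, 955 and 1449.

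CD117, the KIT protein of the sort gate, was lower in members than in other cells, at 381.5 against 513, 310 against 352 and 282.5 against 434. The Kit RNA was lower too, at 114, 124 and 158 CPM against 191, 199 and 226. Cd34 RNA, at 230, 219 and 219 CPM in members, was as even across the libraries as its tag. Members carried more tag counts in all, with medians of 3662, 2946 and 2874 per cell against 2454, 1680 and 2160. As a share of the tags of a cell, CD34 was at a median of 6.85%, 8.17% and 8.41% against 0.813%, 0.877% and 0.598%, while the share of members above the other cells' median moved for most other tags, for example to 61.4% for CD135 in MLL-ENL.

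**Figure D3:**
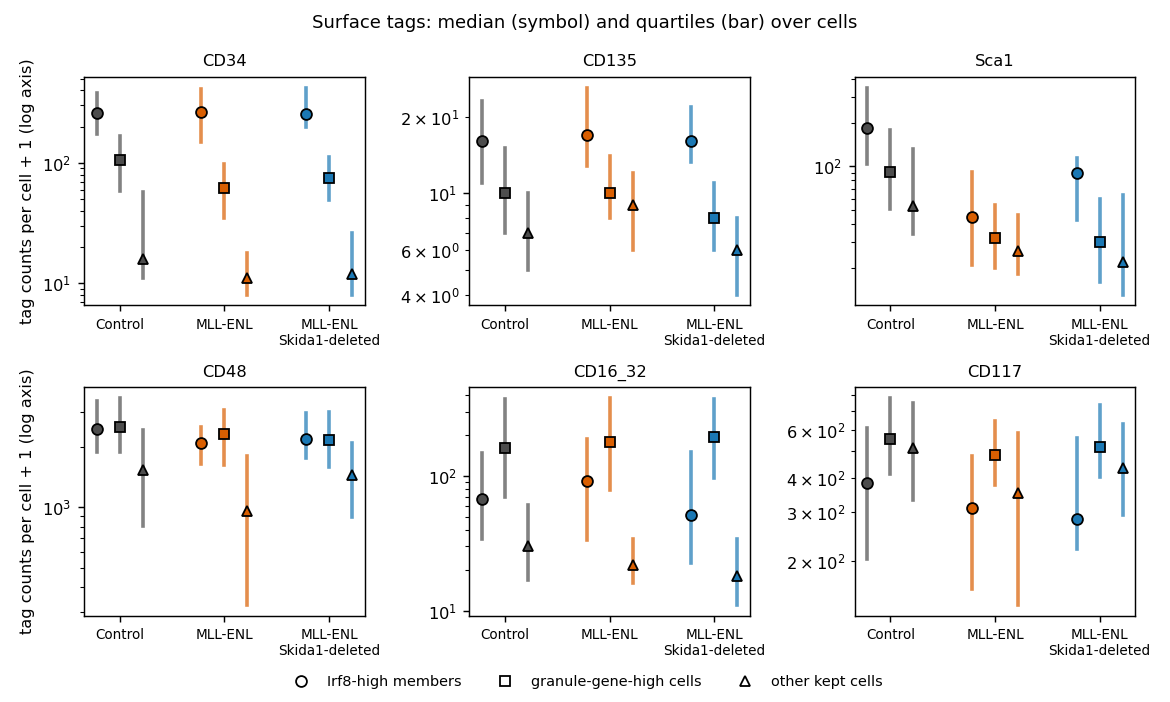
Raw counts of 6 surface tags per cell on a log axis, for members, granule-high cells and other kept cells of each library, with medians and quartiles. CD34 medians of members (259.5, 263 and 253) lie above those of both other sets in every library.

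Sca1, encoded by Ly6a, divided the members along the same line as H2-Aa. In Control its median was 989 in the 36 H2-Aa cells and 156 in the 177 without, and Ly6a RNA was at 178 against 12.2 CPM, a 14.6-fold difference [10.9–19.6]. The H2-Aa cells had less CD117, 159.5 against 400, and less CD34, 122 against 279. In MLL-ENL the 2 H2-Aa cells had a median Sca1 count of 842 against 39, and in the Skida1-deleted library the single cell had 513 against a median of 80. The 3 fusion cells thus had a high Sca1 tag like the 36 of Control, though 3 cells give no estimate of spread.

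Members were then compared between libraries, first the targeted gene. Skida1 (ENSMUSG00000054074, chromosome 2 from 18044087 to 18048449) had 2 UMIs in Control members (0.288 CPM [0.0349–1.04]), 8 in MLL-ENL (8.23 CPM [3.55–16.2]) and 0 in the Skida1-deleted library, where a count of 0 allows up to 7.47 CPM. The ratio of MLL-ENL to Control was 28.6 [5.7–276], and the counts in the Skida1-deleted members do not resolve a loss. In other kept cells Skida1 was at 0.232, 4.87 and 0.491 CPM. Kmt2a, the mouse MLL gene, was at 65.6, 52.4 and 74.9 CPM in members.

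In MLL-ENL members 69 of 3289 genes (2.1%) were 2-fold or more higher than in Control and 88 (2.68%) lower. The median over all genes was -0.19 on the log2 scale, and with the libraries scaled by the median of ratios instead the split was 115 higher and 47 lower. Hoxa9, a direct target of MLL fusions, was at 28.1, 73 and 62.8 CPM in members of the 3 libraries, 2.6-fold higher in MLL-ENL [1.95–3.43]. Hoxa7 was at 37.7, 81.2 and 97.2 CPM, 2.15-fold higher [1.65–2.78]. These were the only 2 of 11 measured fusion targets past 2-fold, with a list median of 0.46. Outside the members, Hoxa9 was at 19.1, 56.6 and 54.6 CPM in other kept cells and at 36.7, 68.3 and 64.3 CPM in granule-high cells.

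Myeloid genes did not all go one way in MLL-ENL members. F13a1 (ENSMUSG00000039109, chromosome 13 from 36867178 to 37050244) was at 143, 314 and 291 CPM, 2.2-fold higher in MLL-ENL [1.93–2.5], and was 0.94 higher on the log2 scale in granule-high cells as well. Tyrobp, the adaptor DAP12 of myeloid receptors, was at 308, 638 and 648 CPM, 2.07-fold higher [1.89–2.27]. Lst1, at 22.9, 92.5 and 128 CPM, and the galectin gene Lgals1, at 432, 1058 and 1184 CPM, were 4.04-fold and 2.45-fold higher. All 3 were also higher in other kept cells, where Tyrobp was at 30.4, 58.1 and 61.7 CPM, Lst1 at 8.05, 30.5 and 51.5 CPM and Lgals1 at 251, 524 and 594 CPM. Ccr2 was at 80.9, 21.6 and 16.2 CPM, 3.75-fold lower in MLL-ENL [2.43–6.1]. In other kept cells it was at 1.08, 0.393 and 0.35 CPM, 2.74-fold lower [2.09–3.63], and in granule-high cells 1.28-fold lower [0.897–1.83]. Both F13a1 and Ccr2 belong to the rule, so their levels depend in part on which cells qualified.

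MHC class II genes were lower in the fusion members, which include fewer H2-Aa cells. Cd74 was at 646, 120 and 111 CPM and H2-Aa at 323, 115 and 74.9 CPM. When the H2-Aa cells were left out, the log2 ratios of MLL-ENL to Control turned to 0.23 for H2-Aa, 0.55 for H2-Ab1 and 0.33 for H2-Eb1. These 3 genes then had too few counts to compare, with 1 H2-Aa UMI left in each of the 2 libraries. Of the 9 listed class II genes outside the rule 1 had enough counts, at -0.18. Those cells were picked by a class II gene and hold nearly all class II UMIs, so the ratios without them are a description only. Prg2, of eosinophil granules, was the most reduced gene by ratio, but 98.4% of its Control UMIs came from 1 member. Erythroid genes were lower in MLL-ENL members, 4 of 5 measured (Car1, Car2, Ermap and Blvrb, log2 ratios of -1.29, -1.21, -1.91 and -1.55), with a list median of -1.29. Without members holding erythroid, megakaryocyte or mast cell UMIs, a choice that itself uses Car1 and other erythroid genes, that median was 0.86.

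Mitotic genes were lower in the fusion members. Of 24 measured G2M genes, 11 were 2-fold or more lower in MLL-ENL, with a median of -0.93 on the log2 scale, and 10 of 24 in the Skida1-deleted library, with a median of -0.95. Of all measured genes 2.68% and 5.73% were lower, with medians of -0.19 and -0.25. Ube2c, which encodes the ubiquitin enzyme of the anaphase-promoting complex, was at 324, 72 and 99.2 CPM, 4.5-fold lower in MLL-ENL [3.54–5.79]. Plk1, the mitotic kinase, was at 70.1, 14.4 and 14.2 CPM, and Cenpf, a kinetochore protein, at 196, 61.7 and 68.8 CPM. UMIs of Ube2c were found in 77.6%, 47.7% and 40.9% of members. Top2a, the DNA topoisomerase of dividing cells, was less different, at 552, 449 and 443 CPM.

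The G2M difference was shared in part by other cells. In granule-high cells 7 of 23 genes were lower in MLL-ENL (median -0.86) and 4 of 23 in the Skida1-deleted library (-0.69), and in other kept cells 0 of 22 in each (-0.48 and -0.51). Of all genes 0.999% and 1.81% were lower in granule-high cells, and 0.483% and 1.3% in other kept cells. Without the H2-Aa cells 11 of 24 remained past 2-fold in MLL-ENL (-0.89). Over all alternatives the median stayed between -1.05 and -0.74 in MLL-ENL and between -1.2 and -0.71 in the Skida1-deleted library. Of the S phase genes 0 of 21 were past 2-fold in MLL-ENL and 1 of 22 (Fen1) was lower in the Skida1-deleted library. Their medians were -0.09 and -0.02, above the -0.19 and -0.25 of all genes.

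Some interferon-inducible genes were lower as well. Isg15, a ubiquitin-like protein induced by type I interferon, was at 93.3, 14.4 and 20.2 CPM in members, 6.48-fold lower in MLL-ENL [3.83–11.9]. Ifitm1, outside the list and named for its size, was at 616, 128 and 117 CPM, 4.83-fold lower, and at 168, 81.5 and 103 CPM in other kept cells. Of 10 measured interferon response genes 3 were 2-fold lower in MLL-ENL (Isg15, Irf7 and Ifi203, median -0.68), against 2.68% of all genes. In the Skida1-deleted library 4 were (those and Ifi35, median -0.88), against 5.73% of all genes, compared with 1 of 8 in granule-high cells of each (-0.37 and -0.63). Isg15 was lower in granule-high cells too, at 50.2, 13 and 18.6 CPM. Without the H2-Aa cells, which had more Irf7, 1 of 9 measured genes (Isg15) was 2-fold lower in MLL-ENL, with a median of -0.62.

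**Figure D4:**
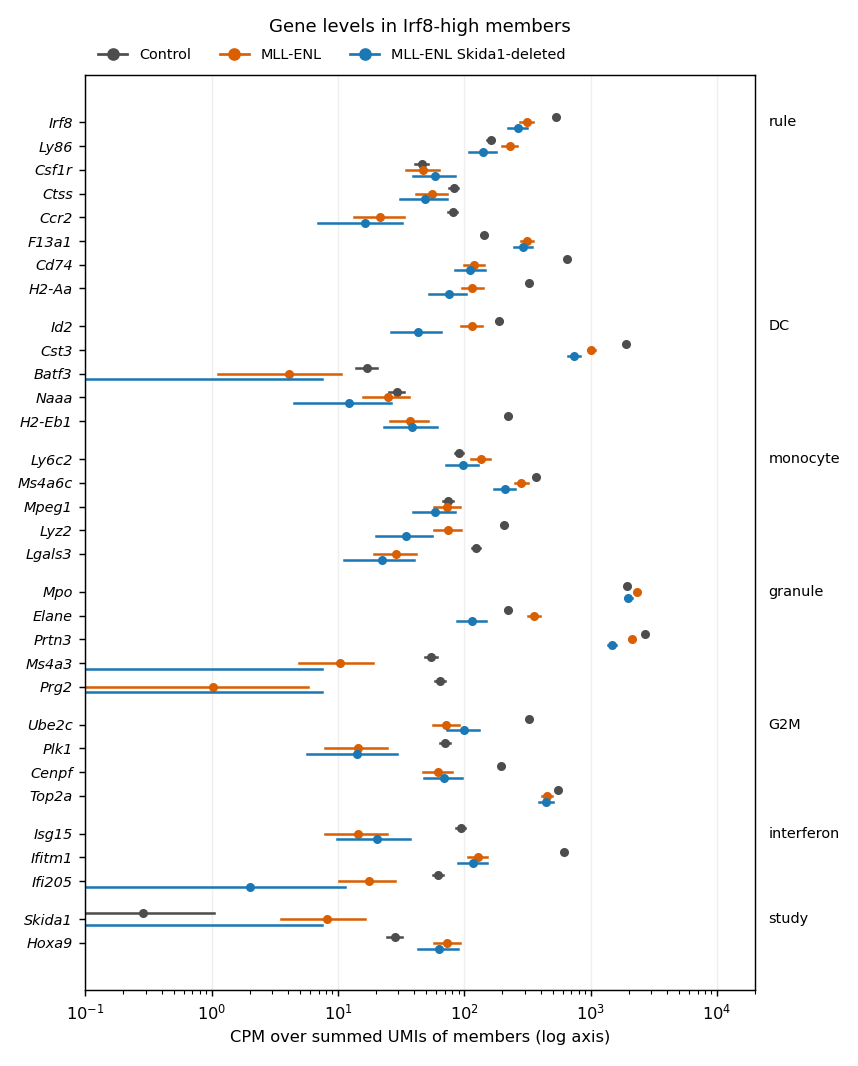
Level of named genes in members of the 3 libraries, in CPM on a log axis with 95% Poisson intervals, grouped by role; a line without a point marks 0 UMIs. F13a1 and Hoxa9 are higher in both fusion libraries than in Control, and Ccr2, Ube2c, Plk1 and Isg15 lower.

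In Skida1-deleted members 129 of 3316 genes (3.89%) were higher than in Control and 190 (5.73%) lower, with a median of -0.25, or 217 and 94 under median-of-ratios scaling. The deletion library has 22 members and 494003 UMIs, so these counts hold more low-count genes. Mef2c, a factor of myeloid and lymphoid progenitors and an MLL-fusion target, was at 220, 398 and 492 CPM, 2.23-fold higher in the Skida1-deleted library [1.94–2.56] and 1.81-fold in MLL-ENL [1.61–2.02]. Hmga2, a chromatin protein of fetal progenitors, was at 166, 310 and 381 CPM. Pcdh7, a protocadherin, was at 4.46, 30.8 and 50.6 CPM, and stood at 15.9, 83.6 and 83 CPM in other kept cells. Id2 was 4.44-fold lower than in Control [2.89–7.19], Lyz2 6.01-fold lower [3.74–10.3], and Ms4a3, a gene of granulocyte-monocyte progenitors, had 0 UMIs against 54.4 CPM in Control, at least 8.96-fold lower. The H2-Aa cells, where Id2 was higher, were 36 of 214 members in Control and 1 of 22 here. How much of the Id2 difference follows from that mix was not tested. Klf4, a factor of monocyte differentiation, was at 15.8 and 12.3 CPM in Control and MLL-ENL and at 0 UMIs here.

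The comparison of the fusion libraries with each other showed few differences. Of 3011 genes, 21 (0.697%) were higher and 27 (0.897%) lower in Skida1-deleted than in MLL-ENL members, with a median of -0.04. Irf8 had a ratio of 0.85 [0.687–1.05], F13a1 of 0.929 [0.757–1.14] and Hoxa9 of 0.86 [0.545–1.33], each with an interval that includes 1. Mpeg1 had a ratio of 0.804 [0.503–1.25] and Unc93b1 of 1.0 [0.717–1.39]. The genes of the rule, the fusion targets and the G2M list had 0 of 7, 0 of 12 and 0 of 19 past 2-fold.

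The genes that did differ include some that rest on few cells and some that differ in other cells too. The erythroid genes Car2, Ermap and Blvrb were higher in the Skida1-deleted members by log2 values of 1.67, 1.44 and 1.28, as was the metallothionein Mt2 by 1.83, but after the cells with the highest doublet scores were removed the values were -0.13, -2.05, -0.94 and -1.12. Rpa3, a subunit of the single-stranded DNA binding complex, was at 87.9, 96.7 and 14.2 CPM in members, and 94.3, 88.4 and 27 CPM in other kept cells. Sdhd, of respiratory complex II, was 3.77-fold lower [2.45–6.04] and was lower in granule-high cells by -1.13 on the log2 scale. Elane was 3.08-fold lower in Skida1-deleted than in MLL-ENL members [2.32–4.16], at 115 against 356 CPM. Granule-high cells differed by 0.31 on the log2 scale in the other direction, but Elane was among the genes that chose them. Id2 was at 42.5 against 114 CPM. The difference between members and granule-high cells in these ratios was not tested.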

How the data were processed

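Per the file headers the deposited matrices came from Cell Ranger 6.1.2, while the submitters' processing notes name Cell Ranger 6.0.1 and mm10. The deposited files hold raw UMI counts of 32285 genes and 10 antibody tags per barcode, with no normalization by the authors. Doublet removal before deposit was not given in the sources used here. The matrices list 6091 barcodes for Control, 11910 for MLL-ENL and 10543 with Skida1 deleted. Filters of 1000 UMIs, 500 genes and under 10% of UMIs from mitochondrial genes kept 5777, 11148 and 9962 cells. The members and all gene lists were chosen with earlier results of these data known.

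Counts were summed over cells of a library and scaled to CPM. Differences are log2 ratios of (CPM + 5), which understates the change of low genes, and folds are ratios of CPM. Genes needed 50 CPM in either set and 30 UMIs over both, and "higher" or "lower" means 2-fold or more on that log2 scale. Intervals at 95% are exact Poisson for levels, Clopper-Pearson for shares and exact conditional binomial for folds. A fold against 0 UMIs was taken against a floor of 3 UMIs over the group. No p-value was computed, since each group has 1 library. Granule-high cells are non-members with 5 or more UMIs of at least 3 of Elane, Prtn3, Ctsg and Mpo.

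Named genes were the 15 highest and 8 lowest against each comparator in Control, the 10 highest and 10 lowest between libraries, the rule genes, Skida1, Kmt2a and Mllt1, up to 4 genes of each of 34 lists, and myeloid transcription factors at 50 CPM. Mitochondrial, ribosomal protein, sex-linked, histone and receptor segment genes were left out, and some genes are not reported here. Genes named outside this rule, the split of Control members by H2-Aa with its genes, and Siglech, Klf4 and Top2a among them, were chosen after their values were seen. Scrublet in scanpy 1.11.5 scored doublets. For 1 alternative only, the highest-scored cells of each library were removed, their share set at 0.8% per 1000 cells. Python 3.11.15, numpy 2.4.6, scipy 1.17.1 and pandas 2.3.3 were used, and the scripts were tested on simulated data. Promoter sequences are RefSeq's for GRCm38.p6, the assembly that mm10 names, and gene positions are from RefSeq's annotation of it, matched by gene symbol.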

Additional observations from a re-analysis of the deposited data

How the results depend on the processing

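No paired analysis was possible because each group has 1 library, and for the same reason no replicate could be left out. The order Control, MLL-ENL, Skida1-deleted of the member shares held under every setting tried. With Irf8 at 5 or more UMIs the fusion shares were 0.242% and 0.13% and the MLL-ENL ratio to Control 0.0703. With 3 of the 7 markers the shares were 2.53%, 0.144% and 0.0803% and the ratios to Control 0.0568 and 0.0318. Thinned to 10000 UMIs the shares were 1.75%, 0.24% and 0.107%, and thinned to 5000 UMIs 0.814%, 0.0569% and 0.0326% (MLL-ENL ratio 0.0699). The Control share was 3.1% without members holding erythroid, megakaryocyte or mast UMIs and 5.1% among cells under 5% mitochondrial UMIs.

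Counts of genes past 2-fold moved with the thresholds, given here as higher and lower. Against other Control cells they were 392 and 170 at 20 CPM with 10 UMIs, 109 and 56 at 100 CPM with 100 UMIs, 362 and 212 at 1.5-fold, 116 and 51 at 3-fold, and 171 lower without the members holding other lineages' UMIs. Against granule-high cells they were 99 and 69, 20 and 20, 111 and 81, and 31 and 22 at the same settings, 85 and 71 without those members, 92 and 60 for means of per-cell CPM, and 59 lower among members of 15000 to 30000 UMIs. For MLL-ENL over Control 212 were lower at 20 CPM and 34 at 100 CPM, 230 and 452 were past 1.5-fold, 4 and 15 past 3-fold, 39 were lower with a pseudocount of 20 and 136 among members of 15000 to 30000 UMIs, and median-of-ratios scaling gave 115 and 47. For Skida1-deleted over Control 432 were lower at 20 CPM and 57 at 100 CPM, 309 and 735 past 1.5-fold, 36 and 37 past 3-fold, 89 lower with a pseudocount of 20 and 316 among members of 15000 to 30000 UMIs, and median-of-ratios scaling gave 217 and 94. For Skida1-deleted over MLL-ENL they were 108 and 105 at 20 CPM, 8 and 7 at 100 CPM, 152 and 180 at 1.5-fold, 4 and 5 at 3-fold and 11 and 9 with a pseudocount of 20. There 42 were lower with a pseudocount of 1 and also without members holding other lineages' UMIs, 14 with Irf8 at 2 UMIs, 70 with Irf8 at 5, and 84 among members of 15000 to 30000 UMIs.

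As a share of each cell's tags, the percentage of members above the other cells' median in Control was 37.4 for CD201, 8.41 for CD150, 72 for CD48, 23.4 for CD41, 3.74 for CD117, 58.9 for CD16_32, 42.1 for CD127, 77.1 for CD135 and 78.5 for Sca1. In MLL-ENL it was 18.2, 6.82, 81.8, 13.6, 6.82, 61.4, 11.4, 61.4 and 34.1 for the same tags. In the Skida1-deleted library it was 4.55 for CD201, 0 for CD150, 9.09 for CD117 and 68.2 for Sca1. Among MLL-ENL cells of 10000 or more UMIs it was 83.3 for CD48 and 21.4 for CD117.

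Of the values of single genes and list medians, 5474 stayed within a set range of the reported value, 912 moved and 30 were reversed. Reversed means a changed sign of a gene reported at 2-fold or more, or of a list median at 1.5-fold or more. Smaller values that changed sign are counted among the others. Prg2 against other Control cells was at -0.99 by means of per-cell CPM and -2.03 without members holding other lineages' UMIs. Without the highest doublet scores, Skida1-deleted over Control gave -0.61 for Mt2, and over MLL-ENL -0.94 for Blvrb, -0.13 for Car2, -0.11 for Cpox, -2.05 for Ermap, -1.12 for Mt2, -0.04 for Tnfaip2 and -0.94 for the erythroid list. Without members holding other lineages' UMIs, MLL-ENL over Control gave 1.09 for Blvrb, 0.86 for Car1, 0.50 for Car2, 1.19 for Ermap and 0.86 for the erythroid list (-1.29 with them), and Skida1-deleted over MLL-ENL gave -0.57 for Blvrb, -1.74 for Ermap, -0.92 for Mt2 and -0.57 for the list. With Irf8 at 5 UMIs Blvrb was at -0.03 in that ratio. Without H2-Aa cells H2-Ab1 was at -0.81 against granule-high cells, MLL-ENL over Control gave 0.23 for H2-Aa, 0.55 for H2-Ab1 and 0.33 for H2-Eb1, and Skida1-deleted over Control 0.78 for H2-Ab1. The MLL-ENL values of these class II genes were below the count threshold. Among members of 15000 to 30000 UMIs, Skida1-deleted over Control gave -0.29 for Mt2, and over MLL-ENL -0.24 for Blvrb, -1.23 for Ermap, -0.88 for Mt2 and -0.24 for the list. Leaving out the H2-Aa cells and limiting the depth were chosen after seeing the data, and the cause of each change was not tested beyond the cells removed.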

Other observations

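Lysosomal and adhesion genes added to the description of the members. Psap, the precursor of the saposins that help break down lysosomal lipids, was at 301, 233 and 194 CPM in members of Control, MLL-ENL and the Skida1-deleted group, against 60.5, 60 and 54.5 CPM in granule-high cells. Ctsh, a lysosomal cysteine protease, was at 65.6, 36 and 18.2 CPM against 4.46, 3.8 and 3.42. Selplg, the ligand of the selectins, was even across the libraries at 121, 130 and 123 CPM against 57.7, 63.3 and 54.6 CPM. Cd44, the hyaluronan receptor, was at 54.3, 115 and 105 CPM in members and Ccl9, a chemokine of myeloid progenitors, at 67.5, 151 and 123, both higher in the fusion libraries.

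Other regulators and receptors were measured in members. Runx1, a factor of blood stem and progenitor cells, was at 156, 156 and 154 CPM in members. Myb, which keeps progenitors immature, was at 297, 227 and 223 CPM, below 488, 444 and 393 CPM in granule-high cells. Irf5, an interferon regulatory factor of monocytes and dendritic cells, was at 39.7, 18.5 and 8.1 CPM, the last from 4 UMIs, against 6.25, 6.94 and 6.3. Il7r, the interleukin 7 receptor used by lymphoid progenitors, was at 12.4, 13.4 and 14.2 CPM against 3.04, 2.58 and 1.94 in other kept cells. These genes were chosen after their values were seen.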
